A study of Homo sapiens with 6 samples.

Results

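The regions described here are the parts of the T47D genome that lay in the inactive compartment B in parental cells and in the active compartment A in tamoxifen-resistant cells. They were chosen by their measured scores: a member is an autosomal 100 Kb bin with a negative compartment score in each of the 5 parental libraries and a positive score in the resistant library. The rule found 1589 bins, or 158.9 Mb, among 26484 autosomal bins with a score in all 6 libraries, which is 6.0% of them, and among 30376 bins in the whole series. Of the 13237 bins that were B in all 5 parental libraries, 12.0% became A (95% Wilson interval 11.5 to 12.6%). The reverse change, from A in all 5 parental libraries to B in resistance, took 1047 of 11383 bins, or 9.20%. The remaining classes used for comparison are 11648 bins that were B in all 6 libraries and 10336 bins that were A in all 6.

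T47D cells are a standard line of estrogen-dependent breast cancer. Parental cells were first deprived of hormone for 72 h and then collected without estradiol (T0) or after 1, 4, 16 and 24 h with 100 nM estradiol (T1, T4, T16 and T24), and the sixth library came from the tamoxifen-resistant derivative (TamR). The labels give routine medium and no agent for TamR, while the methods describe resistant cells as kept in charcoal-stripped serum with tamoxifen. The labels and the methods thus differ on both medium and drug. Resistance, tamoxifen exposure, medium and hormone starvation cannot be told apart in these libraries. Each condition has 1 library, whether replicate cultures were pooled in it is not stated, and no difference described here has a replicate check or a p-value. The values were measured by TCC, a form of Hi-C with ligation on a solid surface, and since contact counts were not part of the files, sequencing depth is not known. Wilson intervals are given over bins, and they are too narrow because neighbouring bins are not independent.

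Chromosomes fold into 2 kinds of chromatin that mix more within their kind than between kinds. Compartment A holds most active genes, early-replicating DNA and open chromatin, and compartment B holds gene-poor, late-replicating and often lamina-associated chromatin. A region that passes from B to A moves from contacts with inactive chromatin to contacts with active chromatin, which may or may not be accompanied by transcription of its genes. In these libraries the score followed base composition, with a Pearson correlation with GC content across bins of 0.715 in T0, 0.720 in TamR and at most 0.748 in T24. Between 44.8% of scored autosomal bins (T24) and 48.3% (TamR) were positive. Scores are printed multiplied by 1000 and are relative to the other bins of their library.

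The promoters below are examples of gene starts found in the members. They belong to the gene of the longest run (FAT3), the gene filled from end to end by member bins on chromosome 20 (MACROD2), a growth factor and a receptor of the same signalling family (EREG and EGFR), and a gene of the zinc finger cluster with the highest TamR scores (ZNF471). These 5 were picked after their values were seen. Each sequence is the 250 bases before the annotated gene start in GRCh37 (hg19), all on the plus strand: FAT3 at chr11:91957734-91957983, MACROD2 at chr20:13975765-13976014, EREG at chr4:75230612-75230861, EGFR at chr7:55086460-55086709 and ZNF471 at chr19:57018969-57019218. Capitals mark CG dinucleotides, the sites of DNA methylation.
FAT3: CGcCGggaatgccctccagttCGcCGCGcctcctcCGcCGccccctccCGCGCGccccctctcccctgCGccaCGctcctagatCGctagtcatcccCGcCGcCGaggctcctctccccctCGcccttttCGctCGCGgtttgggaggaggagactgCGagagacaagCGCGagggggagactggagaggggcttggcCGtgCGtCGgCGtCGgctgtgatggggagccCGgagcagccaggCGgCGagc
MACROD2: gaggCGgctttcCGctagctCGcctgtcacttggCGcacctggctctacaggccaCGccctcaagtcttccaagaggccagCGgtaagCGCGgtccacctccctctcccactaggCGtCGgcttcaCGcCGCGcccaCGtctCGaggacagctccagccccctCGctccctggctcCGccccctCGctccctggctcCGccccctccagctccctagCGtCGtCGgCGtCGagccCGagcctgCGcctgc
EREG: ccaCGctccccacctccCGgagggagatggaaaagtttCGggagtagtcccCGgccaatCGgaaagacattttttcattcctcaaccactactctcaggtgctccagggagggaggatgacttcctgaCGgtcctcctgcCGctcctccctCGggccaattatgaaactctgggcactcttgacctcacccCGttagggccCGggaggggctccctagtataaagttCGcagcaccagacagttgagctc
EGFR: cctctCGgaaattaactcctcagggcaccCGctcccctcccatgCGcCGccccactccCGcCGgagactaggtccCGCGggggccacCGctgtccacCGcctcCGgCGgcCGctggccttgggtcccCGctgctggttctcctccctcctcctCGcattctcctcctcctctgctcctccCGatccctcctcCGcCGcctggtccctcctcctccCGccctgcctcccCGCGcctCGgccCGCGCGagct
ZNF471: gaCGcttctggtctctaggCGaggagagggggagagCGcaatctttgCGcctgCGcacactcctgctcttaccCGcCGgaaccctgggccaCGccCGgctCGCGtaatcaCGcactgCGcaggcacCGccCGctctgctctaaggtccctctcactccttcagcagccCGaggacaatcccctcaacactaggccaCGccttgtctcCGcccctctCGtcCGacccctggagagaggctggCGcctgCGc
FAT3 has 31 CG dinucleotides in this window, MACROD2 26, EGFR 25, ZNF471 22 and EREG 11. Over the 673 gene starts in member bins the median was 11 CG dinucleotides (quartiles 2 and 21), beside 9 for the 2973 starts in bins that stayed B and 15 for the 13674 starts in bins that stayed A. FAT3, MACROD2, EGFR and ZNF471 are thus above the members' upper quartile and EREG is at their median, so the printed promoters are not typical of the members. CG-rich and CG-poor starts both occurred among the members. The letters GGTCA or TGACC, the core of an estrogen response element, stood on either strand in 28.2% of the members' windows, 28.5% of those that stayed B and 32.4% of all 18862. The complete palindrome GGTCANNNTGACC, whose ends are these same letters, was in 0 of the 673 windows and in 7 of all 18862.

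By their medians, members were shallower than the bins that kept their compartment, both as B in parental cells and as A in TamR. Their median score was -2.86 in T0, -2.49 in T1, -2.56 in T4, -2.60 in T16, -2.85 in T24 and 1.64 in TamR. The sign of these values is what the rule selected, which also fixed a positive difference between TamR and the parental mean for every member. In bins that stayed B the T0 median was -5.52, and in bins that stayed A the TamR median was 5.81. The difference between TamR and the parental mean had a median of 4.90 over members (quartiles 3.21 and 6.80), beside -0.22 over bins that stayed B and -0.38 over bins that stayed A. Of the members, 94.4% lay below the median of the positive TamR scores, and 15 of 1589 were in the top 25%. On the parental side, 18.1% of the members were below the median score of parental B bins. The share that became A was 1.28% among the most negative of 10 equal score classes of parental B bins and 30.9% in the least negative class. Bins near the border need the smallest change to cross it, so this gradient is a description and no independent observation.

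**Figure D1:**
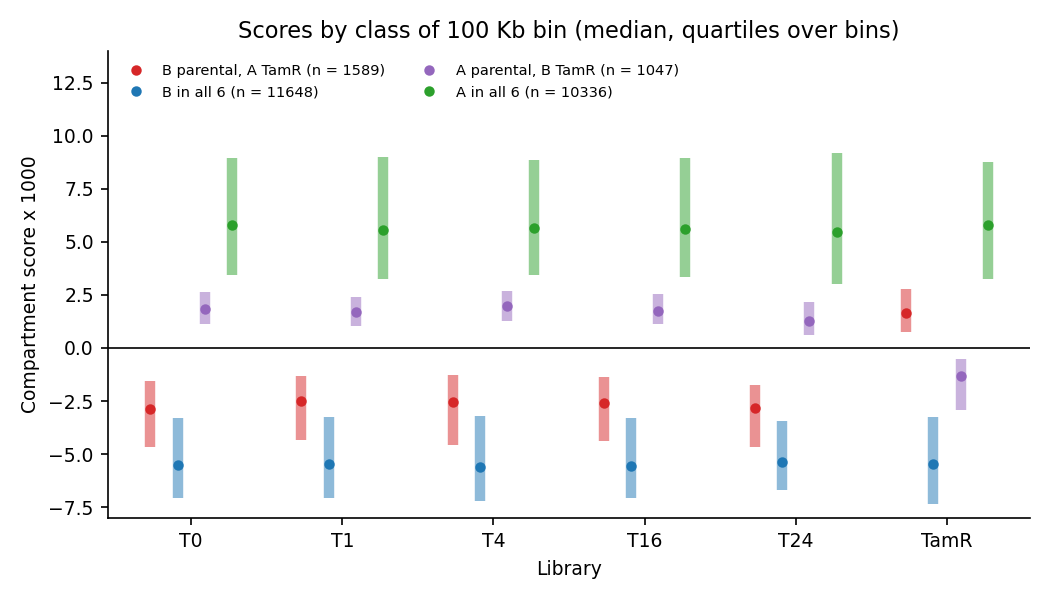
Median compartment score (points) and quartiles over bins (bars) in each of the 6 libraries for members and the 3 other classes. The members' medians lie between -2.86 and -2.49 in the parental libraries and at 1.64 in TamR, each closer to 0 than the bins that kept their compartment.

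No common direction over the estradiol time course was seen among the members. All 4 estradiol time points lay above T0 in 27.9% of members and below it in 19.3%, and in bins that stayed B these shares were 22.5% and 21.6%. Bins close to the border show how the sign decides membership. On chromosome 1, the bin 244400001-244500000 had a TamR score of 0.0040 and was a member. On chromosome 6, the bin 6100001-6200000 had a TamR score of -8.4e-05 and was not. On the parental side, the bin 208000001-208100000 of chromosome 2 with the start of KLF7, a zinc finger transcription factor, was a member with T4 at -0.0018. The bin 51200001-51300000 of chromosome 1 was left out because T1 was 0.0081, although TamR was 4.29.

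As a scale for the number of members, the same count was made for each library: bins that were A in that library and B in the other 5. T0 had 156 such bins, T1 25, T4 43, T16 55, T24 44 and TamR 1589. The runs they formed were at most 5 bins long in the 5 parental libraries and 32 bins in TamR. In the opposite direction, bins that were B in 1 library and A in the other 5, T24 had 228 in runs of up to 6 bins, the other parental libraries 4 to 96, and TamR 1047. The parental libraries are a time course of 1 culture type and not replicates.

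The 1589 members formed 396 runs of adjacent bins. The median run was 200 Kb long, the mean 401 Kb and the longest 3200 Kb. Single bins made up 159 runs, which is 40.2% of runs but 159 of 1589 member bins. The 108 runs of at least 5 bins held 68.7% of the members and the 44 runs of at least 10 bins held 42.7%. The reverse change was more broken up: its 360 runs had a mean of 291 Kb, and 50.4% and 21.8% of its bins lay in runs of at least 5 and 10 bins.

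By the definition used here, most members were growth of compartment A into neighbouring B. For each run, the TamR A block around it was followed outward until a bin that was A in all 5 parental libraries was met or the block ended. Parental A was met on both sides of 58 runs with 337 bins (21.2% of members), so that a parental B gap had closed, and on 1 side of 183 runs with 841 bins (52.9%). Another 109 runs with 234 bins (14.7%) were TamR A blocks made of members alone, and 46 runs with 177 bins (11.1%) lay in blocks that held bins of mixed parental sign but no constant A. Growth thus covered 74.1% of the members (95% Wilson interval 71.9 to 76.2%) and 60.9% of the runs. In the reverse change, 68.0% of bins were in runs that reached parental B. The share depends on the bins of mixed sign that lie along old borders. When only the bin next to the run was looked at, 29.9% of the members were in runs touching a bin that was A in all parental libraries. When weakly scored bins were dropped, 2.79% of the remaining members reached parental A. There a dropped bin also ended the search, and bins at old borders tend to score weakly, so this low value was largely fixed by the setting.

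Long runs were growth more often than short ones. Parental A was reached by 52.2% of single bins, 56.6% of runs of 2 to 4 bins, 71.9% of runs of 5 to 9, 87.9% of runs of 10 to 19 and 10 of the 11 runs of 20 bins or more. New blocks of members alone reached 10 bins at most. Their TamR scores were also the weakest, with a median of 0.45, against 1.63 in runs with parental A on 1 side and 3.40 in runs with it on both sides. Parental medians were close together, at -2.85, -2.73 and -2.41. Longer runs had been deeper in B: the parental median was -1.40 in single bins and -5.01 in runs of 20 bins or more, and the TamR median 0.49 and 2.64.

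**Figure D2:**
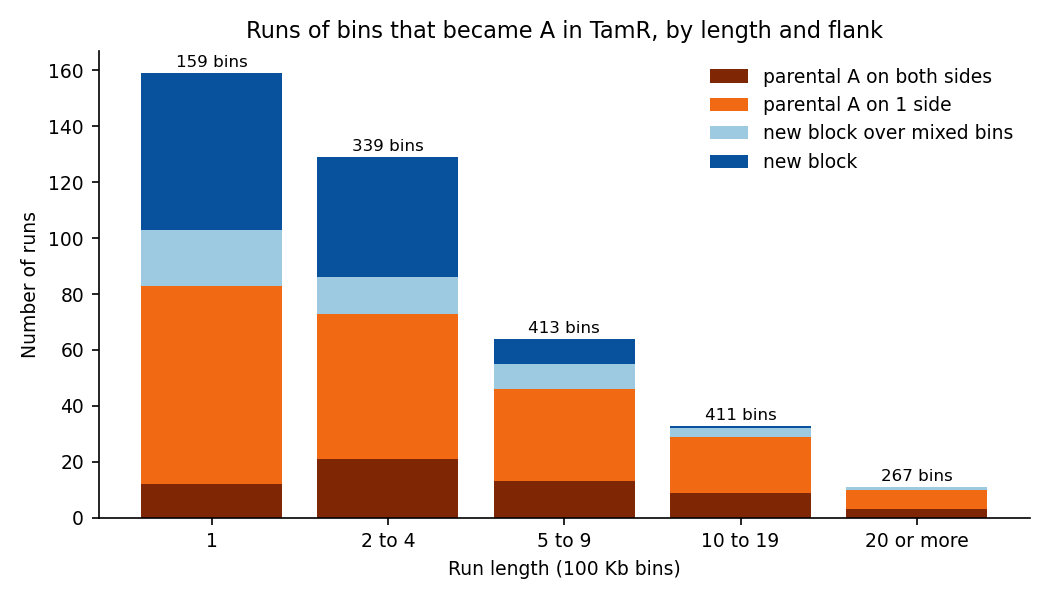
Number of runs by length in 100 Kb bins, split by whether the TamR A block around the run reached parental A on both sides, on 1 side or not at all, with the number of member bins above each bar. The 2 blue parts, runs that reached no parental A, are 56 blocks of members alone and 20 over mixed bins among the 159 single-bin runs, and 1 and 3 among the 33 runs of 10 to 19 bins.

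The nearer a parental B bin was to parental A, the more often it was A in TamR. The share was 39.1% (95% Wilson interval 33.3 to 45.3%) in bins next to parental A, 33.5% at a distance of 2 bins, 25.2% at 3 to 5, 14.8% at 6 to 10, 10.8% at 11 to 20 and 4.28% (3.77 to 4.86%) beyond 20 bins. Bins far from A also had lower scores, with a parental median of -1.15 next to A and -5.94 beyond 20 bins. Among parental B bins below the median score the share was 9.86% at 3 to 5 bins and 2.11% beyond 20, and among those above it 29.3% and 7.57%. The decline with distance was therefore seen on either side of the median, apart from the step from 6 to 10 (5.73%) to 11 to 20 bins (6.10%) among the deeper bins. Within each group the parental median also fell with distance. It went from -1.15 next to A to -3.36 beyond 20 bins above the median, and from -6.19 at 3 to 5 bins to -6.92 beyond 20 below it. Distance and parental score are thus not separated by this split. The reverse change had a similar form, from 31.2% next to parental B to 3.76% beyond 20 bins.

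**Figure D3:**
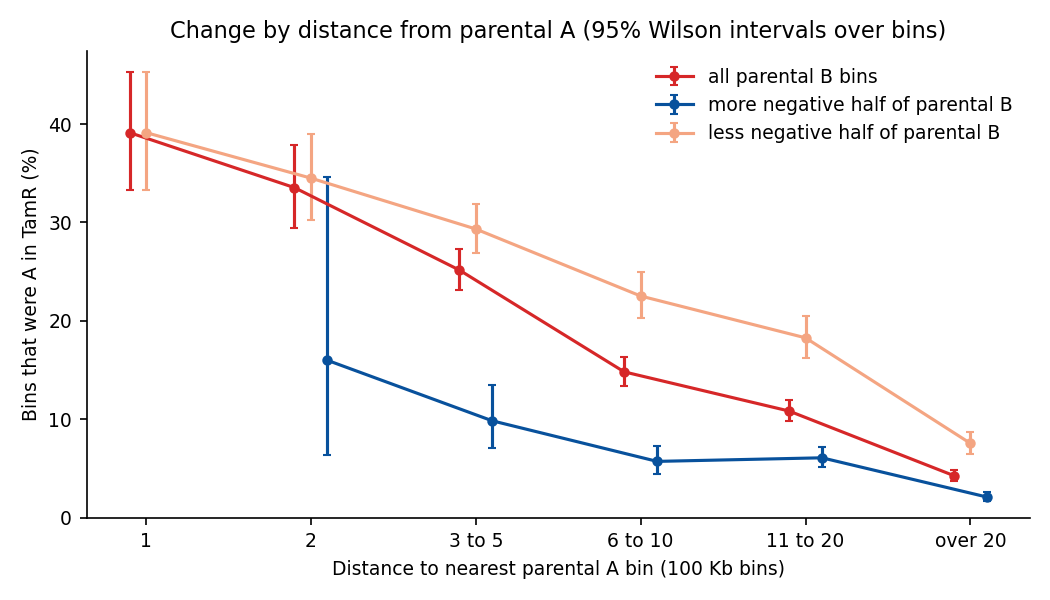
Share of parental B bins that were A in TamR against the distance to the nearest parental A bin in 100 Kb bins, for all parental B bins and for those below and above the median score, with 95% Wilson intervals over bins. The share for all bins falls from 39.1% to 4.28%, and there is no bin of the deeper group next to parental A.

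Across the 60 runs of at least 5 bins with parental A on 1 side, the mean profile showed the old border. The mean TamR score fell inward but was still positive, at 0.36, 10 bins beyond the first member bin. The new border is therefore not visible in this mean. In the first member bin the mean score was -1.54 in T0, -1.74 in T24 and 2.50 in TamR. In the sixth bin inward it was -3.88 in T0 and 1.51 in TamR, a mean that includes bins beyond the end of runs of 5 bins. In the bin just outside the run it was 0.65 in T0 and 3.46 in TamR, and 10 bins outside it was 1.86 and 3.34. The positive sign of TamR next to these runs was fixed by the way runs with parental A on 1 side were defined, so the flank is a description of the profile and no independent observation.

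Viewed from the parental side, the 13237 B bins formed 689 blocks. Of these, 109 changed wholly to A, 165 in part and 415 not at all. The wholly changed blocks held 563 members (35.4%). Of 119 single-bin blocks, 34 changed, and 33 of 134 blocks of 2 to 4 bins, 22 of 97 of 5 to 9, 16 of 110 of 10 to 19, 4 of 151 of 20 to 49 and 0 of 78 of 50 or more changed from end to end. Large B blocks changed in part: 38 of the 78 largest had some members, and 3.19% of their bins were A in TamR, beside 27.2% of the bins in blocks of 10 to 19.

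The longest run covered 3.2 Mb, or 32 bins, at chr11:90200001-93400000 and extended parental A on 1 side. Its mean score was -6.50 in T0, -6.57 in T1, -6.48 in T4, -6.44 in T16, -5.99 in T24 and 2.04 in TamR, so that all parental libraries lay together and deep in B. It contains FAT3, an atypical cadherin of the FAT family whose promoter is printed above, MTNR1B, a melatonin receptor, the amino acid transporter SLC36A4, DEUP1, a factor of centriole amplification in multiciliated cells, and SMCO4. The FAT3 start bin was between -7.23 (T4) and -6.69 (T24) in the parental libraries and at 2.46 in TamR. The start bin of SMCO4, the nearest of these genes to the old border, was at -1.25 in T0 and 3.56 in TamR.

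The run second in length, 30 bins at chr20:13800001-16800000, contains MACROD2, a mono-ADP-ribosylhydrolase gene at a common fragile site. Its mean was -3.35 in T0, -3.46 in T1, -3.37 in T4, -3.42 in T16, -2.96 in T24 and 2.64 in TamR. The TamR A block around it met bins of mixed sign but no constant parental A. All 22 bins of the 2057828-base MACROD2 gene were members. The start bin, shared with SEL1L2, was at -1.90 in T0, between -0.85 and -0.77 in T1 to T24 and at 1.36 in TamR. FLRT3, which codes for a cell adhesion protein, KIF16B, a kinesin, and SNRPB2, a spliceosome component, are in the same run.

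The 28 bins at chr1:48400001-51200000 were a complete parental B block between A blocks, the largest to change from end to end. Its mean was -4.48 in T0, -4.19 in T1, -4.73 in T4, -4.54 in T16, -4.82 in T24 and 3.25 in TamR. It contains AGBL4, a deglutamylase gene of 1491101 bases with all 16 of its bins members, SLC5A9, a sugar transporter, SPATA6 and BEND5, as well as ELAVL4, a neuronal RNA-binding protein. Other complete blocks were 23 bins at chr7:23600001-25900000, with the neuropeptide gene NPY, from -4.87 in T0 to 3.07 in TamR, and 23 bins at chr11:14500001-16800000, with SOX6, the proteasome subunit PSMA1, the phosphodiesterase PDE3B, the vitamin D hydroxylase CYP2R1 and CALCB, from -4.97 to 3.28. A further complete block of 23 bins at chr7:140700001-143000000, from -3.84 to 3.72, holds bitter taste receptors, the trypsinogen PRSS1, the calcium channels TRPV5 and TRPV6 and the receptor EPHB6.

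**Figure D4:**
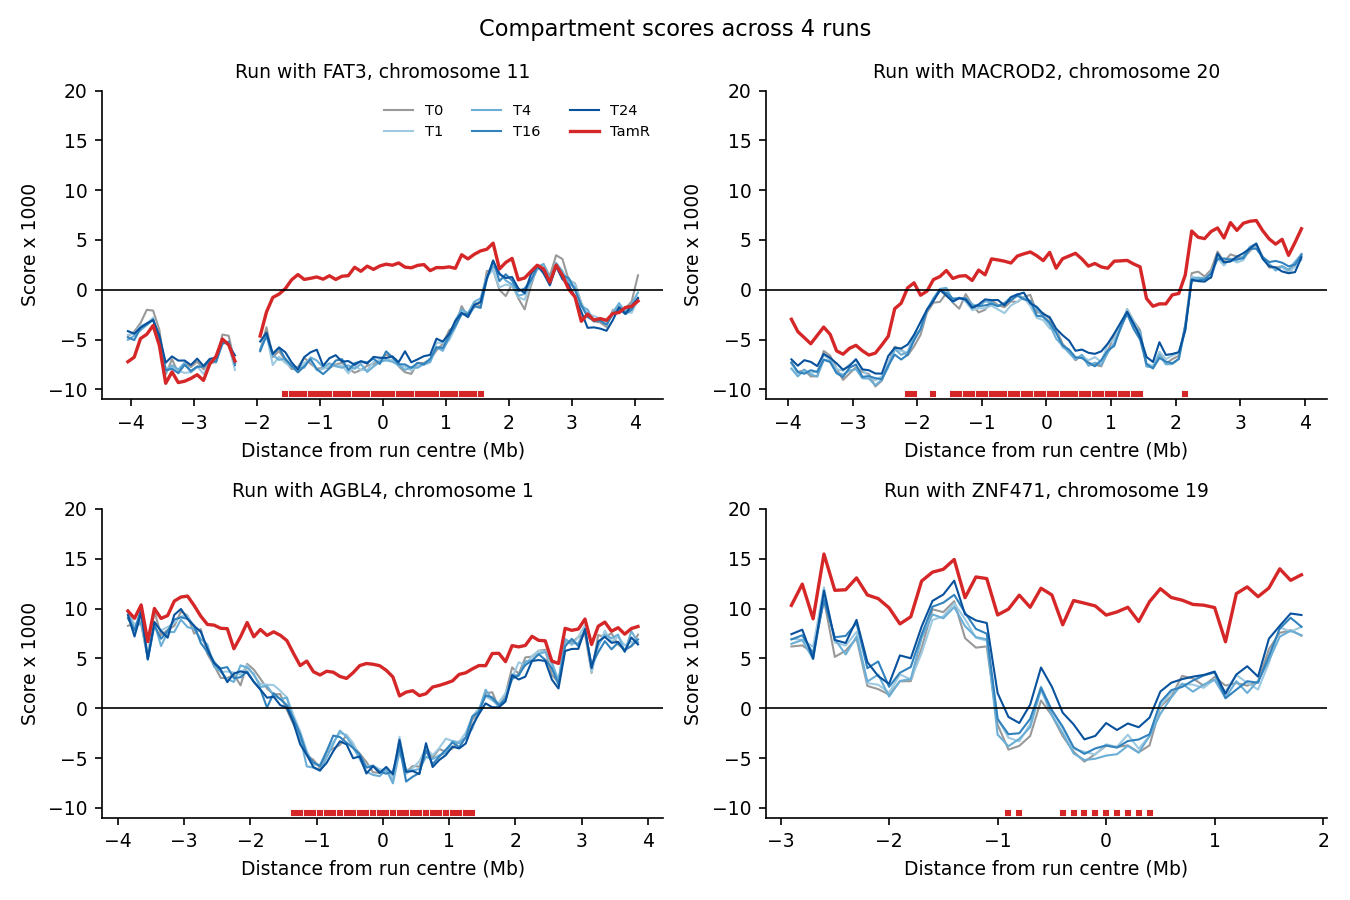
Compartment score times 1000 of the 6 libraries against the distance in Mb from the centre of the runs with FAT3, MACROD2, AGBL4 and ZNF471, with member bins as red squares at the bottom. At the red squares the 5 parental lines lie below 0 and TamR above it, and in the ZNF471 run T24 lies apart from the other parental libraries, with a mean of -1.78 against -4.07 in T0.

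The next runs in length were on chromosome 18, at chr18:52700001-55200000, and chromosome 4, at chr4:187100001-189300000. The first has 25 bins whose mean passed from -4.60 in T0 to 2.16 in TamR. It includes TCF4, a basic helix-loop-helix factor also called E2-2, with TXNL1, WDR7, BOD1L2 and ST8SIA3. The start bin of TCF4 was between -7.23 (T0) and -6.26 (T16) in parental cells and at 1.63 in TamR. The second has 22 bins whose mean passed from -3.60 in T0 to 2.42 in TamR. It includes CYP4V2, KLKB1 and F11, the last 2 coding for plasma prekallikrein and coagulation factor XI, and FAT1, another FAT cadherin. The start bin of FAT1 was between -1.60 (T24) and -0.46 (T0) in parental cells and at 4.00 in TamR. The 8 longest runs together held 206 members, or 13.0%.

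Among new blocks inside B, the longest was 10 bins at chr18:41700001-42700000 with SETBP1, which codes for a SET-binding nuclear protein. Its mean was -6.74 in T0 and 1.20 in TamR. Blocks of 9 bins each lay at chr3:191000001-191900000 with CCDC50 and PYDC2, from -6.66 to 0.92, at chr12:42800001-43700000 with PRICKLE1, a planar cell polarity gene, from -6.26 to 1.28, and at chr15:36000001-36900000 with the start of CDIN1, from -6.21 to 0.98. Blocks of 5 bins held JAG1, a Notch ligand, at chr20:10600001-11100000, from -6.60 to 0.40, and PTGER4, a prostaglandin E2 receptor, with PRKAA1, a catalytic subunit of AMP kinase, at chr5:40300001-40800000, from -6.82 to 0.49. Other blocks of at least 5 bins had been closer to the border: 6 bins at chr4:160700001-161300000 passed from -2.86 to 0.43, 5 bins at chr6:46800001-47300000 from -2.95 to 0.96, and 5 bins at chr3:63900001-64400000, with the proteasome subunit PSMD6, from -0.62 to 1.31. The last of the 10 blocks of this size, 5 bins at chr2:67500001-68000000, passed from -5.06 to 0.75. New blocks thus came from deep and from shallow B, and the TamR means of these 10 were all below the members' median of 1.64. Genes of this paragraph were chosen after the lengths of their blocks were seen.

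Members were unevenly spread over chromosomes. On chromosome 19, 36 of 79 parental B bins became A, or 45.6% (95% Wilson interval 35.0 to 56.5%), and 0 of 443 parental A bins became B. Chromosome 20 followed with 23.5% (52 of 221) and chromosome 9 with 22.5% (125 of 555), then chromosomes 7 and 1 with 16.7% each. The single run with MACROD2 held 30 of the 52 members on chromosome 20. The lowest shares were 0 of 19 bins on chromosome 22 (upper limit 16.8%), 2.87% on chromosome 21, 5.16% on chromosome 5 and 6.88% on chromosome 8. On chromosome 5 the reverse change took 22.6% of parental A bins. Members outnumbered bins of the reverse change on 16 of 22 autosomes. The median difference between TamR and the parental mean over all scored bins of a chromosome ranged from -0.74 on chromosome 22 to 0.51 on chromosome 19, and was -0.58 on chromosome 5, 0.06 on chromosome 9 and -0.0015 on chromosome 20. The part of these chromosome-wide differences in the members' shares was not tested. Leaving out a chromosome kept the share over the genome between 11.5% and 12.5%.

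**Figure D5:**
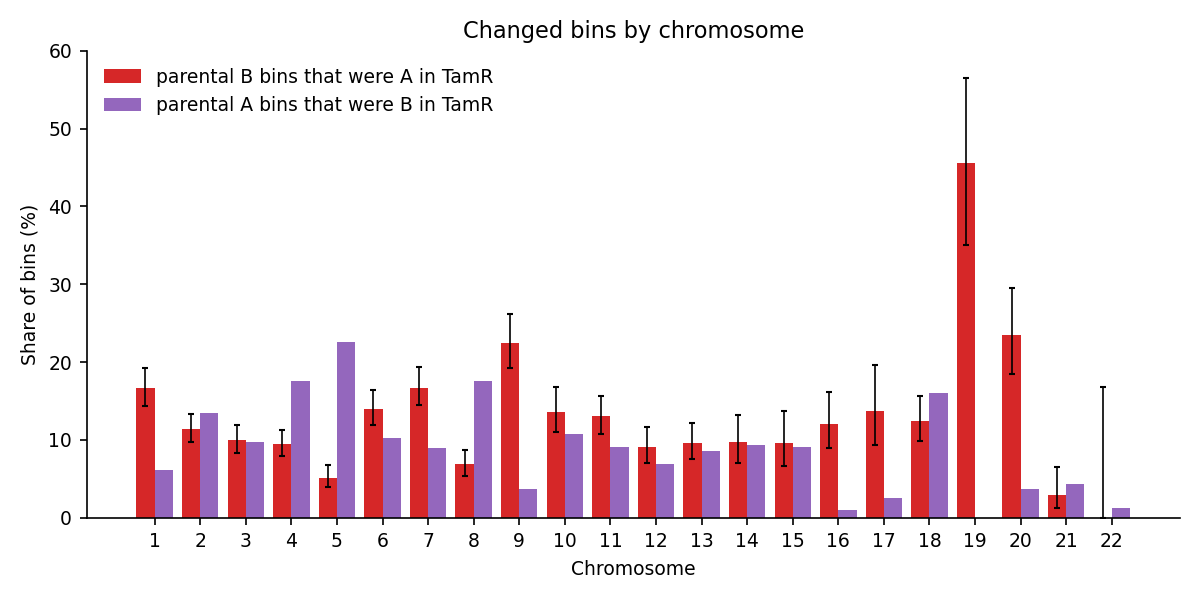
Share in percent of parental B bins that were A in TamR (red, with 95% Wilson intervals over bins) and of parental A bins that were B in TamR (purple) for each autosome. Chromosome 19 stands at 45.6% and 0%, and chromosome 5 at 5.16% and 22.6%.

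The highest TamR scores of all members were on the long arm of chromosome 19, in clusters of genes for KRAB zinc finger proteins, a large family of DNA-binding repressors, and NLRP proteins, several of which act in oocytes and the early embryo. The 10 members with the highest TamR scores were all within chr19:56300001-57700000 and scored 8.70 to 11.4. The top bin, with NLRP13 and NLRP8, was at -3.78 in T0, -3.33 in T1, -3.07 in T4, -2.51 in T16, -1.48 in T24 and 11.4 in TamR, the percentile 91.5 of the positive TamR scores. Its neighbour with NLRP11 and NLRP4 was at -4.15 in T0 and 9.95 in TamR. The bin with ZNF471, ZFP28 and ZNF470 was at -5.36 in T0, -4.37 in T1, -5.19 in T4, -4.58 in T16, -3.12 in T24 and 10.5 in TamR. The bin with ZIM2 and PEG3, imprinted zinc finger genes, was at -3.88 in T0 and 9.67 in TamR. Nearby bins that were A in all parental libraries also scored higher in TamR. The bin 0.6 Mb after the centre of the run with ZNF471 was at 1.18 in T0 and 11.1 in TamR. The bin 2 Mb before the centre was at 1.37 and 10.1. The rise was thus not confined to the members.

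On chromosome 19 the 36 members formed 7 runs. The run of 9 bins at chr19:56800001-57700000, with ZNF582, ZNF583, ZNF667, ZNF71 and ZIM3 besides the genes above, had parental A on both sides and a mean of -4.07 in T0, -1.78 in T24 and 9.84 in TamR. The longest, 13 bins at chr19:22000001-23300000 with ZNF208, ZNF257, ZNF676, ZNF729 and ZNF98, was at -5.00 in T0, -1.93 in T24 and 1.40 in TamR. In each of the 7 runs the T24 mean was the least negative of the 5 parental means. Over all members the T24 median, -2.85, was close to that of T0.

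Zinc finger genes of the ZNF, ZFP, ZIM and ZSCAN series numbered 542 with a score, of which 71 started in parental B bins and 31 in members, 25 of them on chromosome 19. Beside them, 3.57% of all 18862 protein-coding genes with a score and 18.5% of the 3646 that started in parental B started in members, 673 in all. Of 403 olfactory receptor genes 322 were in parental B and 44 in members. Type 2 taste receptors had 6 of 24 in members, with 8 in parental B, and NLRP genes 4 of 14, with 7 in parental B. Keratin and keratin-associated genes had 0 of 152, although 33 were in parental B. Members of such clusters share bins and are not independent, and the families were counted after the leading bins were seen.

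Growth factor signalling genes were compared as lists that were written with earlier results of these data known, so their shares are a description only. EGF, FGF, IGF, neuregulin and GDNF ligands had 5 of 37 in members, or 13.5%, beside 3.57% of all protein-coding genes. They were 5 of the 14 in parental B, or 35.7%, beside 18.5% of all. EPGN, EREG and BTC, ligands of the EGF receptor family, lie within 1 Mb on chromosome 4. The bin of EPGN was at -2.78 in T0, -2.36 in T1, -1.91 in T4, -3.01 in T16, -3.36 in T24 and 5.11 in TamR. The bin of EREG, printed above, was at -1.05 in T0, -0.64 in T1, -0.37 in T4, -0.09 in T16, -0.84 in T24 and 3.77 in TamR. These belong to a run of 12 bins at chr4:74100001-75300000 with parental A on 1 side. The next bin, with AREG, the gene of amphiregulin, is not a member because it was positive in T1, T4 and T16 (0.32, 0.52 and 0.17), and it had a TamR score of 5.49. BTC, which codes for betacellulin, followed in a run of 9 bins and was at -3.37 in T0 and 3.62 in TamR. The cluster was thus A throughout these 4 start bins in TamR, and before it had crossed the border in the AREG bin only.

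The other ligand genes were FGF12 and FGF2. FGF12 was at -3.49 in T0 and 2.42 in TamR in a run of 12 bins. FGF2 was a single bin close to the border, at -0.32 in T0, -0.02 in T4, -1.38 in T24 and 0.51 in TamR. Receptor tyrosine kinases had 4 of 58 genes in members, or 6.90% beside 3.57% of all genes, and 4 of the 13 in parental B, or 30.8% beside 18.5%. EGFR, the receptor of EREG, BTC and EPGN, was a single-bin new block with weak scores: -1.87 in T0, -0.80 in T1, -0.77 in T4, -0.79 in T16, -0.75 in T24 and 0.37 in TamR. NTRK2, a neurotrophin receptor, was similarly weak, at -1.86 in T0 and 0.62 in TamR. MUSK, the receptor of the neuromuscular junction, was at -3.31 in T0 and 4.82 in TamR, and EPHB6, an ephrin receptor, at -3.28 and 6.34. With so few genes on each list, single runs decide these shares.

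The lists of transcription factors and adhesion genes were also short. SOX factors had 2 of 18 in members, and 2 of the 10 in parental B, with SOX4 at -0.56 in T0 and 1.42 in TamR and SOX6 at -3.31 and 4.81. Cadherins, protocadherins and FAT cadherins had 2 of 47, FAT1 and FAT3, although 25 were in parental B. Regulators and markers of epithelial-mesenchymal transition had 1 of 18, TCF4, with 9 in parental B. Estrogen receptor coregulators had 1 of 27, TLE1, a Groucho corepressor, at -0.98 in T0 and 2.87 in TamR. No gene on the lists of steroid receptors, luminal transcription factors, estrogen and tamoxifen metabolism, ABC drug transporters, PI3K, AKT and mTOR signalling and G1 cell cycle started in a member. Few of these genes could have: 5 of 18 steroid receptors, 1 of 16 luminal factors, 11 of 31 metabolism genes, 5 of 15 ABC transporters, 2 of 30 PI3K, AKT and mTOR genes and 5 of 23 G1 genes were in parental B. Of the 24 classical estrogen target genes 0 were in parental B. With 18.5% of all parental B genes in members, counts of 0 in lists this short say nothing about the lists.

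Large genes at common fragile sites had 6 of 31 in members, or 19.4%. Of these 31 genes 26 were in parental B, and the 6 members are 23.1% of those, beside 18.5% of all protein-coding genes in parental B. They were MACROD2, AGBL4, NAALADL2, AUTS2, NBEA and PARD3B. AUTS2 was at -3.35 in T0 and 2.99 in TamR and 12 of its 13 bins were members, whereas NAALADL2 had 1 member among 15 bins, at 0.16 in TamR. Of the 10 longest genes with at least 1 member bin, MACROD2, AGBL4 and ASIC2, an acid-sensing ion channel gene, consisted of members throughout. ASIC2 on chromosome 17 started in a bin at -0.77 in T0 and 8.49 in TamR. LRMDA had 12 of 13 bins in members. In PDE4D, FHIT, CDH13 and ZFHX3 the change was partial, from 1 of 16 bins in FHIT to 5 of 17 in PDE4D, and their start bins stayed B. Of all members, 17.1% overlapped a gene longer than 500 Kb, beside 15.5% of bins that stayed B and 4.71% of bins that stayed A.

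In GC content and gene starts, which the rule did not use directly, the members lay between the constant compartments and nearer to B. The TamR score, which the rule used, itself followed GC content (Pearson correlation 0.720), and the comparisons below were not adjusted for it. Median GC content was 39.5% in members, 37.3% in bins that stayed B and 44.1% in bins that stayed A. Bins of the reverse change had a similar place, with a median GC of 39.7% and 0.489 gene starts per bin. It was higher in members than in bins that stayed B on 18 of the 21 autosomes with members. Because GC content follows the parental score, the comparison was repeated within 10 equal classes of parental score, and members had the higher median GC in 10 of 10 classes, by the least in the most negative class, where the medians were 36.9 and 36.7%. Members held 0.424 protein-coding gene starts per bin, beside 0.255 in bins that stayed B and 1.32 in bins that stayed A. They had more starts than bins that stayed B in 8 of the 10 score classes. The exceptions were the most negative classes, with 17 and 48 members. There members held 0 and 0.0625 starts per bin, beside 0.151 and 0.141 in bins that stayed B. At least 1 start was present in 29.0% of members (95% Wilson interval 26.8 to 31.3%) and 18.3% of bins that stayed B.

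Short runs were richer in genes than long ones: 41.5% of single bins held a gene start and 24.3% of the bins in runs of 20 bins or more, while their GC medians were 39.8% and 39.0%. Bins closing a gap between A blocks had the highest median GC of the 4 kinds of run and new blocks the lowest, 38.7%. Members lay within 5 Mb of a chromosome end in 6.86% of cases, beside 3.61% of bins that stayed B and 12.2% of bins that stayed A. A complete estrogen response element on either strand was found in 7.17% of members (6.01 to 8.55%), 5.67% (5.26 to 6.10%) of bins that stayed B and 9.10% of bins that stayed A. These shares follow the same order as GC content, and a match of letters is not a binding site.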

How the data were processed

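TCC was carried out in parental T47D cells at 5 time points of estradiol treatment and in TamR cells, with 1 library per condition. For each library the authors deposited a score per 100 Kb bin, the first eigenvector from HiCLib after alignment to hg19, iterative correction and removal of contacts within chromosomes. A score of 0 marks a bin with no value. The squared scores sum to 0.998 to 0.999 in each library, so scores are relative within a library. Depth is unknown, since the files hold no contact counts, and the precision of a single score could not be estimated.

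The sign of each score, as deposited, gave the compartment. Autosomal bins with a score in all 6 libraries were classified, adjacent members were joined into runs, and shares were given with 95% Wilson intervals. No test was made. GC content and gene starts came from GRCh37 and GENCODE v44 mapped to it, whose chromosome lengths match the bins, and promoters were cut from the same genome. Of 403 entries on 14 gene lists, 394 matched the annotation. Members and lists were chosen with earlier results of these data known. Genes named were up to 5 inside each of the 8 longest runs, those of the 10 members with the highest TamR scores, list genes starting in members, the 10 longest genes with a member bin, and the bins nearest to the border, of which 1 is not reported here. Genes named outside this rule were chosen after their values were seen. The alternatives were other borders, weak bins left out, other parental references, 500 Kb bins, chromosome X, and other definitions of runs, flanks and genes. Run detection was tested on simulated tracks. These held no bins of mixed parental sign, no missing scores and no scores near the border, so the handling of such bins was not tested. Python 3.11.15, numpy 2.4.6, pandas 2.3.3, scipy 1.17.1 and pysam 0.24.0 were used.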

Additional observations from a re-analysis of the deposited data

How the results depend on the processing

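No paired analysis was possible because there is a single library for each condition. Under the alternatives, 79 of 94 values stayed within set ranges around those reported. These ranges were wide for counts: 1059.3 to 2383.5 members, 264 to 594 runs and 448.7 to 1009.5 gene starts. With T0 alone as the reference, 2003 members, 510 runs and 933 gene starts thus counted as within range. Shares had to stay within the Wilson interval of the reported share, and the median run at 200 Kb. The 79 include the share of parental B that became A with each autosome left out in turn. When bins among the weakest 10% of scores, by size, in at least 1 library were dropped, 824 members remained in 209 runs with 317 gene starts, the share of parental B that became A was 7.47%, and 2.79% of members reached parental A, where a dropped bin also ended the search for parental A. In 500 Kb bins there were 335 members in 160 runs with a median of 500 Kb, and 77.3% reached parental A. The share of parental B bins that became A was 10.9% when TamR was given the T0 share of positive bins, and 14.3% with T0 alone as the reference. The share of members reaching parental A was 80.3% with borders at each library's median score, 83.2% with T0 alone as the reference, 81.1% when a bin positive in T0 sufficed as A, and 29.9% when the next bin alone was looked at. Depth was not given, so its effect on single bins near the border is unknown.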
